A study of Mus musculus with 8 samples.

Results

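The BCL2 family genes that govern mitochondrial cell death were examined in stem and progenitor cells of mice with and without chronic myeloid leukaemia (CML). The group comprised 10 genes, found by symbol in all 8 deposited RPKM files, of 20207 genes listed: the survival genes Bcl2, Bcl2l1 and Mcl1, the effector genes Bax and Bak1, and the BH3-only genes Bcl2l11, Bad, Bid, Bbc3 and Pmaip1. All 10 passed the filter of a total above 1 RPKM over the libraries, as did 12561 genes in all. RPKM is the number of reads per kilobase of transcript and per M (mega) mapped reads. Levels of different genes could thus be set side by side, as far as the transcript lengths used were right.

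CML-affected mice carried Tal1-tTA and TRE-BCR-ABL1, a tetracycline-controlled pair in which the Tal1 promoter drives the transactivator and doxycycline withdrawal switches on the BCR-ABL1 oncogene. The methods describe healthy FVB/N littermates with Tal1-tTA alone and, for other measurements, healthy C57BL/6 controls of ages close to those on the labels. The paper states that the normal cells for sequencing came from healthy littermates, while the labels give C57BL/6 and, for 1 library, 6 months. This conflict between the sources remains, so a transactivator or strain that differed between the groups could not be told apart from disease. Cells were sorted from hindlimb bone marrow of males and females into LT stem cells (long-term; within the KLS+ gate, positive for CD150 and negative for CD48 and CD135), ST stem cells (short-term; the same but negative for CD150) and KLS- committed progenitors (cKit+, Lineage-, Sca-1-). There were 2 libraries each of normal LT cells and CML LT cells, and 1 library each of normal ST, CML ST, normal KLS- and CML KLS- cells. The first normal LT, the normal ST and the normal KLS- libraries are labelled 2 months old, the second normal LT library 6 months, and the CML libraries carry no age. The methods give the sorted CML-affected mice as young adults some weeks after doxycycline withdrawal, younger than 6 months. All libraries are labelled C57BL/6, while the methods give both transgenic lines as FVB/N. Neither source used here states how many mice made up a library or that the CML LT replicates were separate mice. P-values thus cover the spread between libraries, which may be technical for the CML LT replicates. The normal LT replicates differ in labelled age, so their spread also holds any effect of age.

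BCL2 family proteins decide whether the outer mitochondrial membrane stays intact. BAX and BAK form pores that release cytochrome c and thereby start the caspase cascade, the survival proteins BCL2, BCL-XL (from Bcl2l1) and MCL1 hold them in check, and the BH3-only proteins relay stress signals by occupying the groove of the survival proteins or by engaging BAX and BAK directly. In blood-forming tissue MCL1 is required for survival of haematopoietic stem cells, BCL-XL for that of late erythroid cells and platelets, and BIM (from Bcl2l11) is a known mediator of death after BCR-ABL1 inhibition.

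What ties these proteins together is the BH3 helix, in which a leucine and, further on, an aspartate are nearly invariant. The coding DNA of that core is shown here because it is the feature by which the family is recognised and by which its members bind each other. The core was sought in the GENCODE M1 coding transcripts on NCBI Build 37 (mm9) by a pattern of residues. The pattern was leucine, any 3 residues, glycine, alanine or serine, aspartate, and aspartate, glutamate, glycine or serine. For each of the 9 genes below, the longest complete protein in which the pattern occurred only once was taken. Each line gives the 15 codons from 5 before the leucine, 5′ to 3′ on the coding strand, with the leucine and aspartate codons in capitals:
Bcl2: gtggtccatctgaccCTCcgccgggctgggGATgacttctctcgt
Bcl2l1: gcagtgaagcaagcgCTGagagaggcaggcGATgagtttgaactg
Mcl1: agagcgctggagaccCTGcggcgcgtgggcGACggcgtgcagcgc
Bax: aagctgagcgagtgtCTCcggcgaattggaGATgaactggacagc
Bak1: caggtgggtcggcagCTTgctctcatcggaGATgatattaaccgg
Bcl2l11: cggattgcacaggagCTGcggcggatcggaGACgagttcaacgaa
Bad: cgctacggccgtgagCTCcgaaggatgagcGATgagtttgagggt
Bid: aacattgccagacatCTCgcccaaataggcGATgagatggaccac
Bbc3: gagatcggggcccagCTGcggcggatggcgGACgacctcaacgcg

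Pmaip1 was left out of this search beforehand, and its sequence is not reported here. All 9 stretches matched the genome base for base, and each lay within 1 coding exon. In mm9 they are chr1:108609149-108609193 (minus strand) in exon 1 of Bcl2, chr2:152655430-152655474 (minus) in exon 2 of Bcl2l1, chr3:95463344-95463388 (plus) in exon 2 of Mcl1, chr7:52721364-52721408 (minus) in exon 3 of Bax, and chr17:27159473-27159517 (minus) in exon 4 of Bak1. Those of the BH3-only genes are chr2:127972871-127972915 (plus) in exon 3 of Bcl2l11, chr19:7025267-7025311 (plus) in exon 3 of Bad, chr6:120847304-120847348 (minus) in exon 4 of Bid, and chr7:16899107-16899151 (plus) in exon 3 of Bbc3. The aspartate codon was GAT in 6 genes and GAC in 3. The closest pair was Bcl2l11 and Bbc3, with 29 of 45 bases in common, and the most distant was Bcl2 and Bid, with 15. Of 5 complete Bcl2l11 transcripts, 4 encoded the core, and RPKM per gene does not separate the isoform without it.

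The libraries held an estimated 17.8 to 23.9 M reads, and the LT replicates correlated at 0.981 (normal) and 0.982 (CML) on the log2(RPKM + 1) scale. The sort markers followed the labels in part. Ly6a, which encodes Sca-1, was 72.4 to 152 RPKM in the 6 stem cell libraries and 8.16 and 11.7 RPKM in the KLS- libraries, and Slamf1, which encodes CD150, was 10.7 to 35.5 RPKM in LT and 1.11 and 2.87 RPKM in ST cells. Flt3, which encodes CD135, was at 61.6 and 71.6 RPKM in the ST libraries, where the gate was CD135-. Cd48 was at 41.8 and 45.2 RPKM there and at 16.8 and 29.5 RPKM in CML LT cells, where both gates were CD48-. The gates acted on surface protein, which these RNA levels do not measure. Granulocyte and monocyte markers (10 genes) summed to 260 to 4043 RPKM in the stem cell libraries and to 9513 and 15585 RPKM in the normal and CML KLS- libraries. Among stem cells the sum was highest in the second normal LT (4043), the second CML LT (2714) and the CML ST library (1551). The genes of this list did not move together. Most of the KLS- sums was Mpo (7891 and 13120 RPKM), which was 69.9 RPKM in the second normal LT library. S100a8 (1802), S100a9 (856) and Ngp (688 RPKM) were high in that LT library, while Ngp was 7.06 and 20.9 RPKM in KLS- cells. T and NK cell markers (6 genes) summed to 87.8 to 292 RPKM in stem cells and to 682 and 692 RPKM in KLS- cells, nearly all of it Nkg7, while the T cell marker Cd3e was at or below 0.148 RPKM throughout.

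The 10 transcripts differed widely in level. Ordered by the median over the 8 libraries, Mcl1 (36.3 RPKM) stood first, followed by Bid (21.1), Bax (17.6), Bad (13.0), Bcl2l1 (12.9), Bcl2 (8.14), Bak1 (2.89), Bcl2l11 (1.71), Pmaip1 (1.01) and Bbc3 (0.234). Bad and Bcl2l1 were not separated, since Bad was the higher in only 4 of the 8 libraries. Such an order also depends on the transcript lengths behind the RPKM, which are not known. In GENCODE M1 all exons of Bcl2l1 sum to 4734 bases, but its longest transcript has 2417. Mcl1 exceeded Bid in 6 libraries, and Bax exceeded Bad and Pmaip1 exceeded Bbc3 in 8 of 8. Bbc3, which encodes the p53-responsive protein PUMA, rested on about 2 to 26 reads a library, with a counting error of 19.4% to 70.1% of each value; for Mcl1 this error was 1.33% to 3.29%. Counting errors assume independent molecules, which amplified cDNA does not give.

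**Figure D1:**
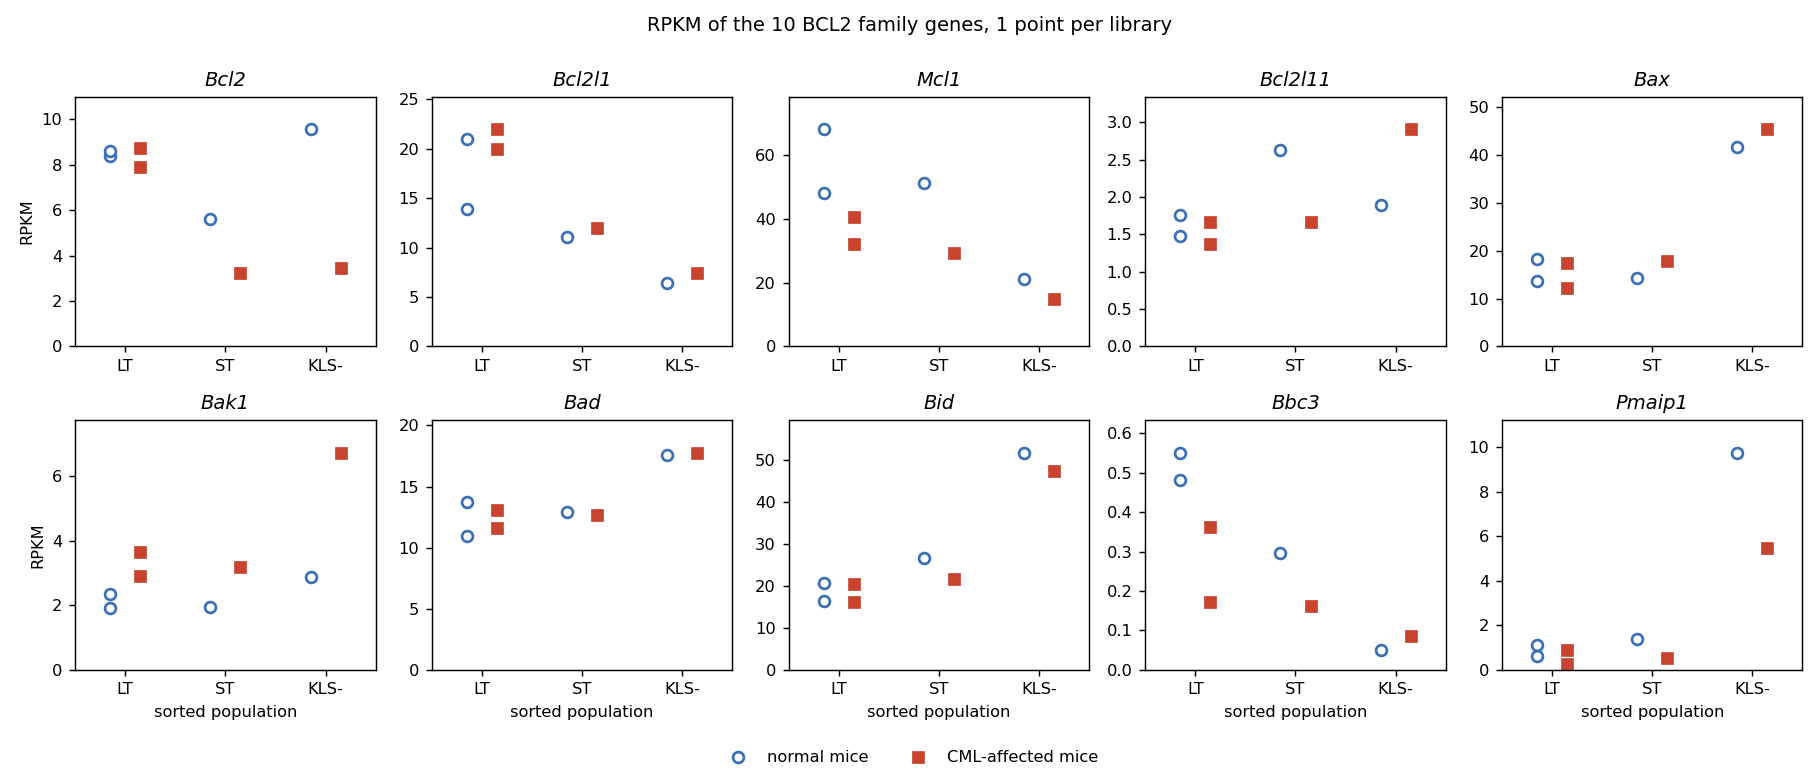
RPKM of each of the 10 genes (vertical axis, linear from 0, its own scale in each panel) in LT, ST and KLS- cells, with 1 point per library, open circles for normal and filled squares for CML-affected mice. Bax, Bad, Bid and Pmaip1 were higher in both KLS- libraries than in every stem cell library, and Bcl2l1 and Mcl1 were lower.

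How the family differs between stem cells and their committed progeny was asked first, since the KLS- libraries of both disease states could be combined. Progenitors carried less of 2 survival and more of 5 death transcripts, while Bcl2, Bcl2l11 and Bbc3 were not called. The limma fit held all 8 libraries with terms for disease and population (4 residual degrees of freedom, Benjamini-Hochberg adjustment over 12561 genes). Mcl1 and Bcl2l1 fell and Bax, Bak1, Bad, Bid and Pmaip1 rose in KLS- cells, each at an adjusted p under 0.05. This made 7 of 10 genes, against 48.7% of all genes tested; 5 of 10 were higher, against 22.2% of all genes, and 2 of 10 lower, against 26.5%. The median difference was 0.36 on the log2 scale for the 10 genes and -0.08 for all genes. So many genes differed between these populations that the count alone does not set the family apart.

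Among the survival genes, Mcl1 fell furthest. Mcl1 encodes a short-lived protein that must be made continually. It was 48.2 and 68.2 RPKM in normal LT, 51.3 in normal ST, 32.1 and 40.6 in CML LT and 29.5 RPKM in CML ST cells, against 21.2 RPKM in normal and 14.9 RPKM in CML KLS- cells. Every stem cell library was above both progenitor libraries, and the mean was 2.49-fold lower in KLS- cells (log2 difference -1.20, SE 0.16, adjusted p = 5.7e-04 from limma). Bcl2l1 was 21.0 and 13.9 RPKM in normal LT, 11.1 in normal ST, 22.0 and 19.9 in CML LT and 12.0 RPKM in CML ST cells, and 6.37 and 7.39 RPKM in normal and CML KLS- cells. The groups again did not overlap, with a mean 2.42-fold lower in KLS- cells (log2 difference -1.01, SE 0.16, adjusted p = 0.0013 from limma). Bcl2, the founding member, had no common direction: 8.38 and 8.63 RPKM in normal LT, 5.60 in normal ST, 7.89 and 8.75 in CML LT and 3.22 in CML ST cells, but 9.57 RPKM in normal and 3.48 RPKM in CML KLS- cells (log2 difference -0.03, SE 0.23, adjusted p = 0.911).

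Of the effectors, Bax rose most clearly. It was 18.2 and 13.7 RPKM in normal LT, 14.3 in normal ST, 17.3 and 12.3 in CML LT and 17.9 RPKM in CML ST cells, against 41.6 and 45.4 RPKM in normal and CML KLS- cells. The progenitor libraries were both above the highest stem cell library, and the mean was 2.78-fold higher (log2 difference 1.42, SE 0.18, adjusted p = 3.6e-04 from limma). Bak1 was lower throughout, at 1.90 and 2.36 RPKM in normal LT, 1.94 in normal ST, 2.92 and 3.65 in CML LT, 3.19 in CML ST, 2.86 in normal KLS- and 6.73 RPKM in CML KLS- cells. Within each disease state the progenitor library was above every stem cell library, although the normal progenitors lay inside the range of the CML stem cells. Bak1 rose (log2 difference 0.61, SE 0.16, adjusted p = 0.0140), but the call was lost without the CML KLS- library (difference 0.34, adjusted p = 0.251).

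The BH3-only genes did not move as a block. Pmaip1, which encodes NOXA, an antagonist mainly of MCL1, differed most of all 10 genes. It was 0.604 and 1.10 RPKM in normal LT, 1.38 in normal ST, 0.273 and 0.911 in CML LT and 0.546 RPKM in CML ST cells, but 9.77 RPKM in normal and 5.48 RPKM in CML KLS- cells. The mean was 9.49-fold higher in progenitors (log2 difference 2.21, SE 0.20, adjusted p = 7.9e-05 from limma), and the level in the first CML LT library corresponded to about 15 reads. Bid, whose product is cleaved by caspase 8 and links death receptors to mitochondria, was 20.6 and 16.4 RPKM in normal LT, 26.7 in normal ST, 16.3 and 20.5 in CML LT and 21.6 RPKM in CML ST cells, against 51.7 and 47.3 RPKM in normal and CML KLS- cells. Bid was thus 2.44-fold higher in progenitors, with no overlap (log2 difference 1.20, SE 0.15, adjusted p = 3.5e-04 from limma).

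Bad, whose product is held inactive by growth factor signalling through phosphorylation, ranged narrowly from 11.0 to 13.7 RPKM in the stem cell libraries and was 17.5 and 17.8 RPKM in normal and CML KLS- cells (log2 difference 0.46, SE 0.13, adjusted p = 0.0183). Both progenitor libraries were above all stem cell libraries, but the call was lost without the normal KLS- (adjusted p = 0.116), the CML KLS- (0.141) or the CML ST library (0.0581), while the difference stayed between 0.43 and 0.49 whichever library was left out. Bcl2l11 was 1.48 and 1.75 RPKM in normal LT, 2.62 in normal ST, 1.66 and 1.38 in CML LT, 1.66 in CML ST, 1.89 in normal KLS- and 2.91 RPKM in CML KLS- cells. These ranges overlapped (log2 difference 0.25, SE 0.17, adjusted p = 0.253). Bbc3 was 0.163 to 0.551 RPKM in stem cells and 0.050 and 0.085 RPKM in KLS- cells, that is, about 2 and 3 reads (log2 difference -0.29, SE 0.11, adjusted p = 0.0576). Its 2 progenitor values were the lowest of the 8 but lie at or under the level of 3 reads, so no fold is given.

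Both KLS- libraries lay outside the range of the stem cell libraries for Bcl2l1, Mcl1, Bax, Bad, Bid, Bbc3 and Pmaip1, 7 of 10 genes, against 49.6% of all genes tested. Mcl1, Bcl2l1, Bax, Bid and Pmaip1 passed the threshold in all 16 alternatives. The KLS- libraries had larger RPKM sums (444650 and 465695, against 324114 to 372849 in stem cells). Rescaling all libraries to the same sum moved the median of all genes to -0.28 and the share of higher genes among all calls from 45.6% to 23.2%; upward calls among the 10 genes then went from 5 to 3 and downward calls from 2 to 3, with Bak1 (adjusted p = 0.112) and Bad (0.379) lost and Bbc3 (0.0424) gained.

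**Figure D2:**
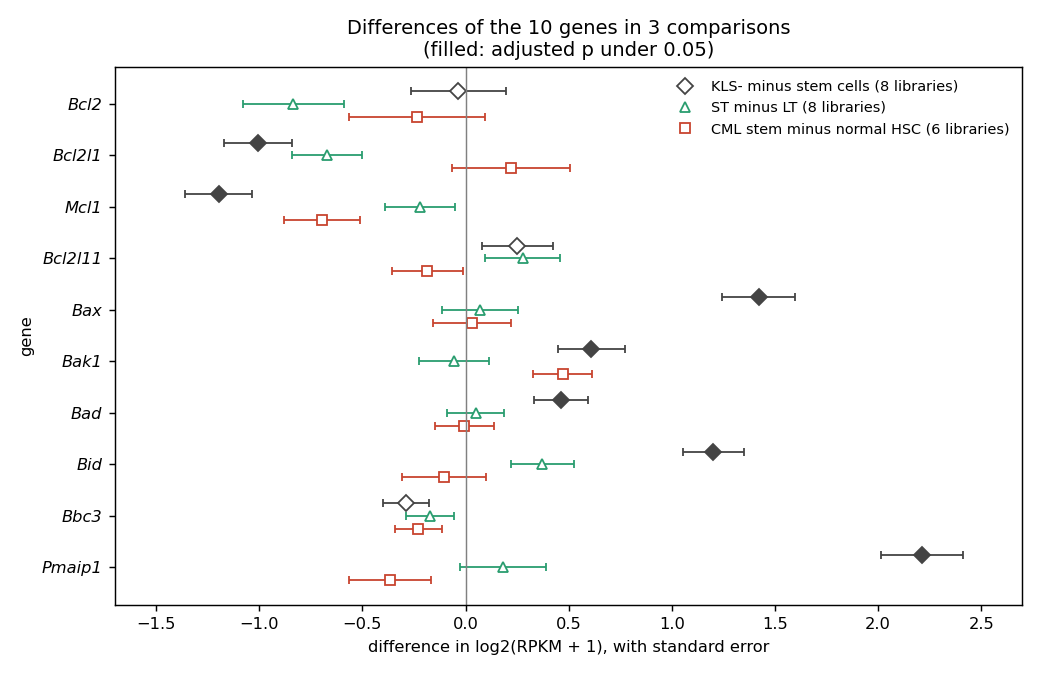
Differences in log2(RPKM + 1) of the 10 genes, with standard errors, for KLS- minus stem cells (diamonds), ST minus LT cells (triangles) and CML stem cells minus normal HSCs (squares); filled symbols have an adjusted p under 0.05. Only the KLS- comparison has filled symbols, from -1.20 for Mcl1 to 2.21 for Pmaip1.

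Summing RPKM by role showed the same shift in each disease state. The 3 survival genes summed to 77.6 and 90.7 RPKM in normal LT, 68.0 in normal ST, 62.0 and 69.2 in CML LT and 44.7 RPKM in CML ST cells, but to 37.2 and 25.8 RPKM in normal and CML KLS- cells. The effectors summed to 16.0 to 21.1 RPKM in stem cells and to 44.5 and 52.1 RPKM in normal and CML KLS- cells. The ratio of survival to effector transcript was therefore 2.12 to 5.66 in the stem cell libraries, lowest in CML ST, and 0.836 and 0.494 in the normal and CML KLS- libraries. Mcl1 made up 51.8% to 75.5% of the survival sum in stem cells and 57.1% and 57.8% in progenitors. These sums weigh abundant genes most, depend on the transcript lengths used and were not tested, and RNA amounts say nothing of protein, phosphorylation or binding.

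**Figure D3:**
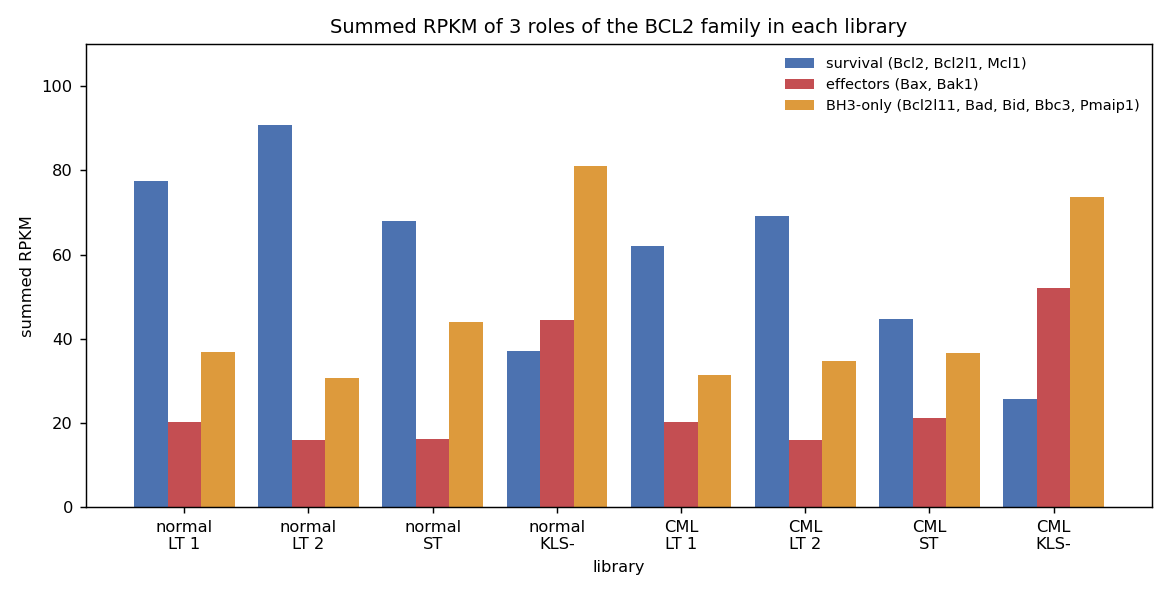
Summed RPKM (vertical axis, from 0) of the survival, effector and BH3-only genes in each of the 8 libraries, as bars. Survival transcript exceeded effector transcript in all 6 stem cell libraries and was below it in both KLS- libraries, where BH3-only transcript reached 81.0 (normal) and 73.6 RPKM (CML).

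Other markers moved with these differences. Proliferation genes passed the test as higher in KLS- cells in 6 of 6 cases, summing to 668 and 685 RPKM against 157 to 468 RPKM in stem cells. Immediate early genes, which respond to cell handling and to signalling, were lower in 7 of 9 cases, with sums of 389 and 643 against 823 to 1501 RPKM. Erythroid markers were higher in 4 of 6 cases (826 and 1816 against 7.33 to 109 RPKM). Most of the KLS- sums was Car1 (804.5 and 1775 RPKM), while Hbb-b1 (log2 difference -0.34) and Alas2 (-0.19) were not called. Granulocyte and monocyte markers were higher in 4 of 10 cases, T and NK cell markers in 1 of 4 and B cell markers in 0 of 5, while megakaryocyte markers were lower in 4 of 5. The part of all these markers in the differences of the family was not tested. In bulk libraries such as these, fewer cells of a type and less RNA per cell cannot be told apart.

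Whether the family already differs between ST and LT stem cells was examined in the same fit. No member passed the threshold, against 4.87% of all genes; 3 members (Bcl2l1, Bcl2 and Bid) and 2456 of all genes had an unadjusted p under 0.05. Bcl2 was 5.60 and 3.22 RPKM in normal and CML ST cells and 7.89 to 8.75 RPKM in the 4 LT libraries (log2 difference -0.83, SE 0.24, adjusted p = 0.0968). Bcl2l1 was 11.1 and 12.0 RPKM in ST and 13.9 to 22.0 RPKM in LT cells (log2 difference -0.67, SE 0.17, adjusted p = 0.0624). Both ST libraries were thus below all LT libraries for these 2 survival genes, while Mcl1 overlapped (log2 difference -0.22, SE 0.17, adjusted p = 0.526). Bid was higher in both ST libraries than in any LT library (log2 difference 0.37, SE 0.15, adjusted p = 0.226). These 3 of 10 members were those whose ST and LT libraries did not overlap, against 24.2% of all genes.

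The calls for these genes depended on the fit. Bcl2 passed when only the 6 stem cell libraries were fitted (adjusted p = 0.0437) and when either KLS- library was left out, and Bcl2l1 passed under quantile normalisation (0.0249), upper-quartile scaling (0.0251), equal RPKM sums (0.0477) and without the second normal LT library (0.0113). Proliferation genes were lower in ST cells in 5 of 6 cases and megakaryocyte markers in 4 of 5, and their part in these values was not tested.

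The comparison of CML stem cells with normal HSCs (3 against 3 libraries, LT and ST together) asked whether the oncogene is accompanied by a change in the family. None of the 10 genes passed the threshold in limma, against 2.34% of all genes; 2 members and 1573 of all genes had an unadjusted p under 0.05. These were Mcl1, lower in CML, and Bak1, higher in CML, the only members whose groups did not overlap, against 18.3% of all genes. The median log2 difference was -0.15 for the members and -0.04 for all genes.

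Mcl1 averaged 55.9 ± 10.8 RPKM (SD, n = 3) in normal HSCs and 34.1 ± 5.8 RPKM (SD, n = 3) in the CML stem cell libraries (log2 difference -0.69, SE 0.18, adjusted p = 0.135 from limma). The highest CML library, 40.6 RPKM, was below the lowest normal library, 48.2 RPKM, and the CML progenitors, too, were below the normal ones (14.9 and 21.2 RPKM). Bak1 averaged 2.07 ± 0.26 RPKM (SD, n = 3) in normal HSCs and 3.25 ± 0.37 RPKM (SD, n = 3) in the CML stem cell libraries (log2 difference 0.47, SE 0.14, adjusted p = 0.204 from limma). Its lowest CML library, 2.92 RPKM, was above the highest normal library, 2.36 RPKM, and its levels in KLS- cells, 6.73 in CML and 2.86 RPKM in normal, had the same order.

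When the KLS- libraries were added and the disease term was estimated over all 8 libraries, both genes passed the threshold: Mcl1 with a log2 difference of -0.64 (SE 0.14, adjusted p = 0.0298) and Bak1 with 0.60 (SE 0.14, adjusted p = 0.0379). That fit called 776 genes in place of 294. Over the 15 alternatives the adjusted p of Mcl1 ranged from 0.0298 to 0.361 and that of Bak1 from 0.0379 to 0.547.

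The ranges of the other 8 members overlapped between CML and normal stem cells. In mean RPKM, Bbc3 was 1.91-fold and Pmaip1 1.79-fold lower in CML, but at low levels. These folds were larger than those of Mcl1 (1.64-fold lower) and Bak1 (1.57-fold higher), and the log2(RPKM + 1) scale shrinks them. Bbc3 (0.163 to 0.361 RPKM in CML and 0.296 to 0.551 RPKM in normal) and Pmaip1 (0.273 to 0.911 and 0.604 to 1.38 RPKM) were lower in the mean with overlapping ranges (log2 differences -0.23, SE 0.12, and -0.37, SE 0.20; adjusted p = 0.490 and 0.526). Bcl2l11, the gene of BIM, was 1.38 to 1.66 RPKM in CML and 1.48 to 2.62 RPKM in normal stem cells (log2 difference -0.19, SE 0.17, adjusted p = 0.740). Bcl2l1, a known target of STAT5, was 12.0 to 22.0 RPKM in CML and 11.1 to 21.0 RPKM in normal stem cells (log2 difference 0.22, SE 0.29, adjusted p = 0.819). Bcl2, Bax, Bad and Bid had adjusted p values of 0.836 to 0.991 with standard errors of 0.14 to 0.33 on the log2 scale, which does not show that they were alike.

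Restricted to LT cells, the only population with replicates in both groups, none of the 10 genes passed, against 1.73% of all genes; Mcl1 and 1452 of all genes had an unadjusted p under 0.05. This comparison shares its LT libraries with the one above. Mcl1 was 36.3 ± 6.0 RPKM (SD, n = 2) in LT-CML and 58.2 ± 14.2 RPKM (SD, n = 2) in LT-HSCs (log2 difference -0.65, SE 0.23, adjusted p = 0.321), and Bak1 3.28 ± 0.52 and 2.13 ± 0.32 RPKM (SD, n = 2 each; log2 difference 0.45, SE 0.20, adjusted p = 0.467). Bbc3 was likewise separate, at 0.171 and 0.361 RPKM in LT-CML and 0.482 and 0.551 RPKM in LT-HSCs, but on 7 to 26 reads. Mcl1, Bak1 and Bbc3 were the 3 of 10 members without overlap in LT cells, against 40.5% of all genes. The higher Mcl1 value in LT-HSCs, 68.2 RPKM, came from the library labelled 6 months. That library also had the highest sum of granulocyte and monocyte markers among the stem cells. Without it the Mcl1 difference was -0.41, still in the same direction. Of the marker lists, Flt3 was higher in LT-CML (log2 difference 1.95, adjusted p = 0.0184) and Car1 (-2.53, 0.00946), Cd79a (-1.51, 0.0357) and Ppbp (-1.13, 0.0415) were lower, and their part in these values was not tested. These were 1 of 8 sort markers, 1 of 6 erythroid, 1 of 5 B cell and 1 of 5 megakaryocyte markers; no marker passed with LT and ST cells together.

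A difference between the disease effects in progenitors and in LT stem cells was tested as an interaction. No member passed, and 3 of 12561 genes did (0.0239%), while 1 member and 472 of all genes had an unadjusted p under 0.05. That member was Bcl2, at 3.48 RPKM in CML and 9.57 RPKM in normal KLS- cells, a 2.75-fold lower level, against 8.32 and 8.51 RPKM on average in CML and normal LT cells (interaction -1.21 on the log2 scale, SE 0.33, unadjusted p = 0.0076, adjusted p = 0.786). The ST libraries had the same order as the progenitors, with Bcl2 1.74-fold lower in CML. Each KLS- and ST group is a lone library assumed to vary like the LT replicates, of which the normal pair differs in labelled age.

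The genes around the family were compared from 3 lists. Among 16 other BCL2 family genes, 12 passed the filter, of which 2 were higher in KLS- cells, 2 lower and 8 not called, so that 4 of 12 passed, against 48.7% of all genes. Bcl2l13, a mitochondrial member, rose from 3.47 to 4.22 RPKM in stem cells to 5.94 and 7.40 RPKM in normal and CML KLS- cells (log2 difference 0.65, adjusted p = 0.00466), whereas the hypoxia-responsive Bnip3 fell (-0.66, 0.00420) and so did Bok, an effector-like gene, at low levels (-0.48, 0.0340), the last in only 6 of 15 alternatives. Bcl2a1a passed as higher with 0.805 RPKM in normal but 0.141 RPKM in CML KLS- cells, and since the Bcl2a1 copies are nearly identical, its reads may be shared among them; it passed in only 7 of 15 alternatives. Hrk, Bcl2l10, Bcl2a1c and Bcl2a1d did not pass the filter.

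Of 18 other genes of the cell death machinery, 9 rose and 5 fell in KLS- cells, against 22.2% and 26.5% of all genes (median log2 difference 0.33). Cycs, which encodes the cytochrome c that the pores release, was 50.5 to 84.3 RPKM in stem cells and 221 and 193 RPKM in normal and CML KLS- cells (log2 difference 1.67, SE 0.16, adjusted p = 9.5e-05). Htra2, which encodes a released protease, rose to 21.0 RPKM in both KLS- libraries (1.27, adjusted p = 4.8e-04), and Aifm1 to 45.4 and 54.4 RPKM (0.93, 0.00306). Not all that rose promotes death. Birc5, an inhibitor of apoptosis family member that is mainly a mitotic gene, had the largest difference of the list (1.83, SE 0.18, adjusted p = 1.2e-04), and Vdac2 encodes a mitochondrial channel with housekeeping roles (0.75, 0.00127). The caspase inhibitor gene Birc2 fell (-0.83, adjusted p = 0.00153), as did the caspase gene Casp6 (-0.79, 0.00198), so that inhibitors and caspases were found in both directions. Cycs, Htra2, Aifm1, Birc5 and Birc2 passed in all 16 alternatives; with equal RPKM sums 6 genes of the list were higher and 6 lower, without the CML KLS- library 7 and 1, and Vdac2 (adjusted p = 0.0643) was lost under quantile normalisation.

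Of 18 upstream regulators, 17 passed the filter, and 3 rose and 7 fell in KLS- cells, against the same 22.2% and 26.5% (median log2 difference -0.27). Foxo1, a transcription factor that can activate Bcl2l11, fell furthest, from between 2.99 and 4.96 RPKM to 0.827 and 0.667 RPKM (-1.35, SE 0.15, adjusted p = 1.9e-04). The p53 targets Mdm2 and Cdkn1a were both lower (-0.71, adjusted p = 0.0124, and -0.88, 0.0365), Cdkn1a in only 8 of 16 alternatives. Pmaip1, another, was higher, and the p53-responsive Bbc3 was not called (-0.29, adjusted p = 0.0576). These are not all targets of p53. Trp53 itself passed as higher (0.44, adjusted p = 0.0454), but in only 5 of 16 alternatives, and with equal RPKM sums it was -0.11. Fbxw7 (-0.47, 0.0190) and Usp9x (-0.44, 0.0202), which encode a ligase subunit and a deubiquitinase acting on MCL1 with opposite effects, both fell, and Myc rose (0.64, 0.0136). Foxo1 passed in all 16 alternatives; for the list as a whole, equal RPKM sums gave 0 higher and 12 lower genes, leaving out the CML KLS- library 0 and 1, and leaving out the normal KLS- library 0 and 2.

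**Figure D4:**
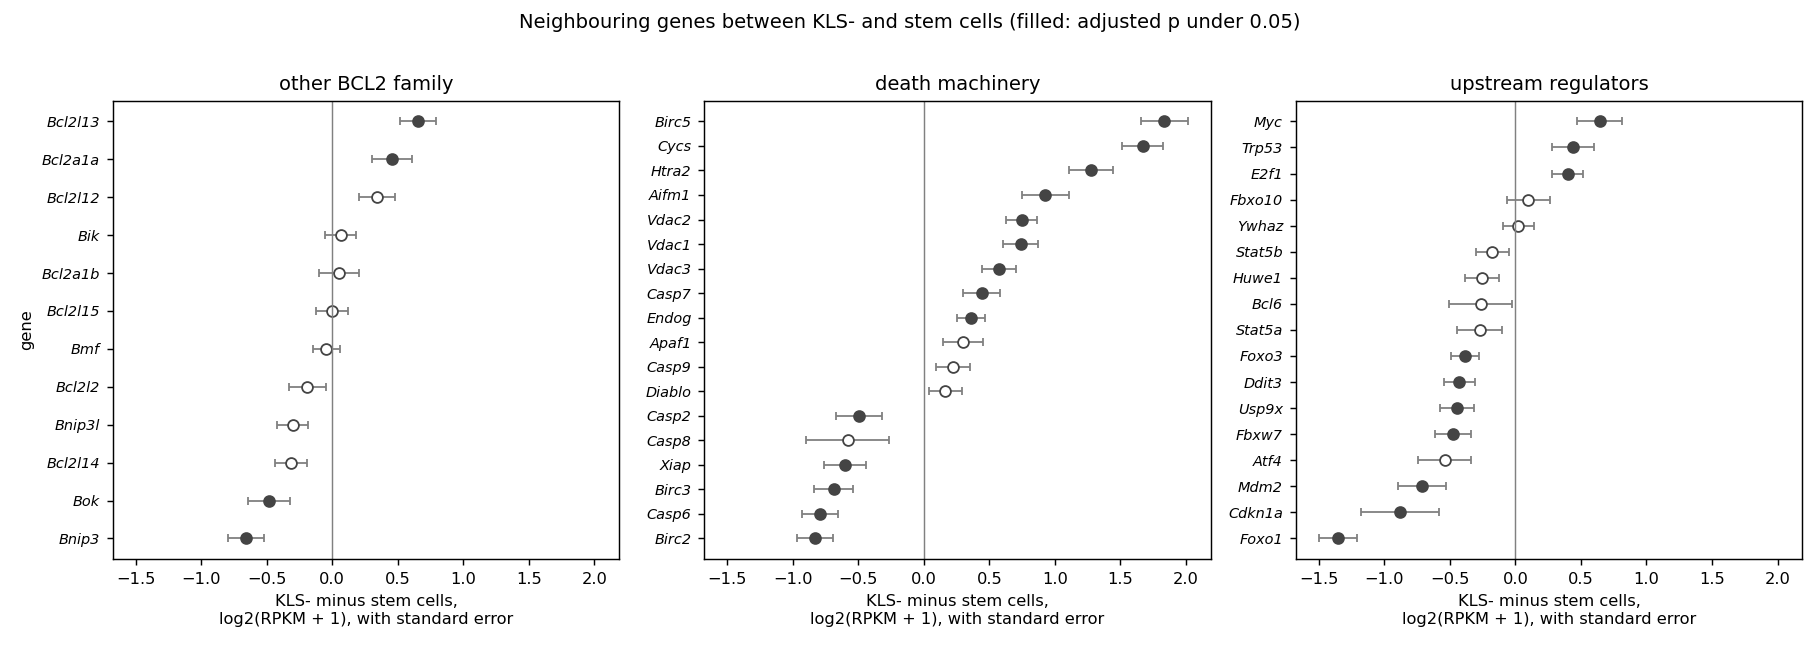
Differences in log2(RPKM + 1) between KLS- and stem cells, with standard errors, for the tested genes of 3 lists: other BCL2 family genes (12), death machinery (18) and upstream regulators (17); filled points have an adjusted p under 0.05. Birc5 and Cycs lie at the upper end and Foxo1 at the lower end.

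Between CML stem cells and normal HSCs none of the tested genes of these lists passed the threshold, nor did any in LT cells alone. The upstream regulators were mostly lower in CML stem cells, with only 2 of 17 above 0 and a median log2 difference of -0.26 against -0.04 for all genes, but no gene of the list passed. Between ST and LT cells, Casp6 was higher (0.67, adjusted p = 0.0366) and Birc5 (-1.83, 0.00224) and E2f1 (-0.57, 0.0370) were lower in ST cells.

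For the 3 members with the largest range, the genes whose pattern was most alike over the 8 libraries were sought by Pearson correlation on the log2(RPKM + 1) scale among 6344 genes. For Pmaip1 they were Ms4a6c (r = 0.994), Ccr2 (0.979) and Pgam1 (0.978). Ms4a6c was 4.54 to 13.0 RPKM in stem cells and 89.6 and 38.2 RPKM in normal and CML KLS- cells, and thus, like Pmaip1, was higher in the normal than in the CML progenitors. For Mcl1 they were Rab10 (0.985), Erbb2ip (0.984) and Nfkbid (0.984), and for Bax they were Mrps18a (0.989), 2310001A20Rik (0.987) and Guk1 (0.985). These correlations describe the 8 libraries, which fall into stem cells and progenitors, and carry no test.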

How the data were processed

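RNA of sorted cells was amplified by the authors with an ultra-low-input, oligo-dT kit, sequenced as paired reads and mapped to mm9 (NCBI Build 37, also in the labels) by a commercial service; the deposited values are RPKM per gene. The annotation, counting rule and treatment of multiply mapped reads are not given in the sources used here. Groups were taken from the labels. RPKM were compared as log2(RPKM + 1) with the linear models and trended empirical Bayes step of limma 3.58.1 (R 4.3.3) over 12561 genes with a total above 1 RPKM, at a Benjamini-Hochberg adjusted p under 0.05. Differences are on the log2(RPKM + 1) scale, which understates changes of low genes. Depth was estimated from the steps of low values: for 74.9% of 4197 low genes the values lay within 0.02 reads of whole reads, with GENCODE M1 exon lengths setting the scale. Python 3.11.15 was used for the rest, and the fits were tested on simulated data. The members and lists were chosen with earlier results of these data known. Named genes are all members and, from each list, those called, up to 8 a comparison by size, of which some are given only in counts and in the plot. Alternatives covered pseudocount, filters, scaling, variance trend, terms and samples of the fit, and leaving out each library. A gene of the death machinery list is not reported here.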

Additional observations from a re-analysis of the deposited data

How the results depend on the processing

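No paired analysis was possible because the labels number only the CML LT libraries, and every other group has 1 library or replicates told apart by age alone. Of the 10 genes, Mcl1, Bcl2l1, Bax, Bid and Pmaip1 kept direction and call between KLS- and stem cells in every alternative run; for the other calls the cause of a change was not tested. Bbc3 has no value with a minimum mean of 1 RPKM, which removes it, and the disease effect in KLS- minus that in LT cells cannot be fitted without either KLS- library. Reads limit Bbc3 and, in the first CML LT library, Pmaip1, and where a group is left with 1 library, that library is assumed to vary like the others.

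Between CML stem cells and normal HSCs, 294 genes passed, against 193 without a filter, 543 with cell type as a covariate and 776 in the fit of all 8 libraries, where 2 members (Mcl1 and Bak1) passed, and 115 (without CML LT replicate 1) to 217 (without normal ST) when a library was left out; without normal LT replicate 1 it was 120. Between LT-CML and LT-HSCs, 217 genes passed, against 0 without a filter (1765 at an unadjusted p under 0.05) and 6 to 225 with a library left out, with 6 without either CML LT replicate, 32 without normal LT replicate 2 and 74 without normal LT replicate 1. Between KLS- and stem cells, 6123 genes passed, and 3178 (without CML KLS-) to 6338 with a library left out, 3657 without normal KLS-; of the members, 5 (without CML KLS-) to 8 passed. Bbc3 passed there with a pseudocount of 0.1, without a filter, with equal RPKM sums and without CML LT replicate 1, and Bcl2l11 passed under quantile normalisation (adjusted p = 0.0406); without a disease term the adjusted p of Bak1 was 0.128. Between ST and LT cells, 612 genes passed, against 283 without a filter and 110 (without CML ST) to 718 with a library left out, 126 without normal ST and 373 without normal LT replicate 1. No member passed there, but 1 did under quantile normalisation, upper-quartile scaling, equal RPKM sums and with only the stem cell libraries, and 0 to 1 with a library left out (Bcl2 without either KLS- library, Bcl2l1 without normal LT replicate 2). For the disease effect in KLS- minus that in LT cells, 3 genes passed, against 1 with a minimum mean of 1 RPKM, 0 under each other alternative, and 0 to 3 with a library left out (0 without any of the 4 LT libraries).

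Some differences turned sign, none of them called. Not all were near 0 in the main fit. Between LT-CML and LT-HSCs, Bcl2l1 was 0.28 and Pmaip1 -0.24 there. Bcl2 was -0.24 between CML stem cells and normal HSCs, and Bcl2l11 was 0.25 between KLS- and stem cells. Bad was 0.030, 0.031 and 0.065 between CML stem cells and normal HSCs under quantile normalisation, upper-quartile scaling and equal RPKM sums, -0.0046 and -0.011 between LT-CML and LT-HSCs under the first 2, and -0.00092 and -0.11 for the disease effect in KLS- minus that in LT cells under the last 2. With equal RPKM sums Bcl2 was 0.032 and Bid 0.055 between LT-CML and LT-HSCs, and Bcl2 was 0.083 between KLS- and stem cells under quantile normalisation. With a library left out, the values that turned sign ranged, between CML stem cells and normal HSCs, over -0.46 to 0.15 (Bcl2), -0.060 to 0.19 (Bax), -0.093 to 0.056 (Bad) and -0.27 to 0.066 (Bid). Between LT-CML and LT-HSCs they ranged over -0.096 to 0.036 (Bcl2), -0.0061 to 0.56 (Bcl2l1), -0.14 to 0.024 (Bcl2l11), -0.34 to 0.13 (Bax), -0.14 to 0.15 (Bad), -0.17 to 0.15 (Bid) and -0.53 to 0.056 (Pmaip1). Between KLS- and stem cells they ranged over -0.54 to 0.47 (Bcl2, the ends being without normal and without CML KLS-) and -0.058 to 0.56 (Bcl2l11), and between ST and LT cells over -0.094 to 0.24 (Bax), -0.14 to 0.016 (Bak1) and -0.011 to 0.11 (Bad). For the disease effect in KLS- minus that in LT cells they ranged over -0.37 to 0.19 (Bcl2l1), -0.079 to 0.42 (Mcl1), -0.0025 to 0.46 (Bax), -0.14 to 0.16 (Bad) and -0.27 to 0.044 (Bid).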
